A study of Mus musculus with 26 samples.

Results

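The microglia genes studied here are 10 symbols chosen by name: the receptors Csf1r, Cx3cr1, P2ry12 and Trem2, the adaptor Tyrobp, the complement chains C1qa, C1qb and C1qc, and the lysosomal genes Ctss and Laptm5. Of these, 8 of 10 were listed in at least 1 of 3 deposited tables, which together hold 9574 gene symbols. Each table listed 7 of 10: C1qa, C1qb, C1qc, Csf1r, Ctss and Cx3cr1 were in every table, Trem2 was in both transgenic tables, and P2ry12 was in the knockout table. Tyrobp and Laptm5 were in none of the 3 tables and were not analysed here.

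Microglia are the resident macrophages of the brain. They depend on Csf1r signalling to survive, sense neurons and nucleotides through Cx3cr1 and P2ry12, take up lipid and debris through Trem2, and supply most of the C1q of the brain, which tags synapses and debris for removal. LRRK2, a kinase linked to Parkinson's disease that acts on Rab GTPases of the endolysosomal system, is present both in striatal neurons and in cells of the myeloid lineage.

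Ribosome footprinting and RNA-Seq were run on the striatum (caudate putamen) of C57BL/6 mice aged 3 months, each library from tissue pooled from 3 animals. The groups were G2019S LRRK2 TG mice (GS), kinase-dead G2019S/D1994A LRRK2 TG mice (GS/DA) and their wild-type, non-transgenic controls (non-TG), and LRRK2 knockout mice (KO) with wild-type controls (WT). Both transgenes were under the CaMKII-tTA driver, which is active in forebrain neurons, with doxycycline until weaning, so microglia are not the cells in which the driver is known to act. The KO is a germline deletion and reaches microglia as well. The labels give the same group of non-TG control samples for the GS and GS/DA tables. They do not say which of them entered each mean, and this was not worked out here. The 3 tables were normalised separately, so levels cannot be set against each other across tables.

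The deposited values are group means of reads on the coding sequence (CDS), normalised by the authors. Where a mean is the average of a pair of libraries with whole read counts, it can be taken apart, and single libraries could be worked out for 10 of 12 columns of means, which gave 20 libraries. They are called shallower and deeper within a group and assay, by total reads, and no footprinting library was paired with an RNA-Seq library. Both control columns of the GS table could not be separated, so values of that comparison carry no test. The shallowest libraries were in the KO table, with 3097969 and 5289893 CDS reads for WT footprinting, 2862310.0 and 6051183 for KO footprinting, 3132940.0 and 7518803 for WT RNA-Seq, and 4553449 and 10879892 for KO RNA-Seq. In the GS/DA table the footprinting libraries held 8798592 and 14409734 CDS reads (non-TG) and 7883011 and 18690989 (GS/DA), and the RNA-Seq libraries 11661191 and 12167054 (non-TG) and 11240526 and 13647157 (GS/DA). The libraries of GS mice held 7318403 and 8315487 footprinting reads and 8696465 and 14546606 RNA-Seq reads.

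Lrrk2 itself was read in every group first. In the KO table its footprinting level was 690.1 and 400.3 normalised reads in the WT libraries (shallower, deeper) and 149.7 and 102 in the KO libraries, a mean 4.33-fold lower. Its RNA-Seq level was 733 and 1278 in WT and 270.02 and 423 in KO, 2.90-fold lower. Both knockout libraries were below both WT libraries in each assay, and reads on Lrrk2 were still present. The deposited means do not show where in the gene these reads lie. The limma test of the 2 against 2 footprinting libraries gave a log2 difference of -2.003 for Lrrk2, and its adjusted p over all transcripts was 1.00 in both assays. The deleted gene thus did not pass, although it was lower in 2 of 2 knockout libraries and was among the transcripts at an unadjusted p under 0.05.

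In the transgenic tables the Lrrk2 footprinting level was 1224 and 1445 in non-TG and 4766 and 7267 in GS/DA, a 4.51-fold higher mean (limma adjusted p = 0.901). The GS libraries had 7052 and 3320 against a control mean of 2524, 2.05-fold higher. The control mean of Lrrk2 footprints was 2524 in the GS table and 1335 in the GS/DA table, where the summed control mean of the members was 3424 and 4223. The tables were normalised separately, so these levels are given side by side and are not compared. The libraries behind the control mean of the GS table were not resolved, so the baseline of the 2.05-fold value is not known to be the same as that of GS/DA. In RNA-Seq the Lrrk2 level split within groups instead of between them: 560.2 and 5233 in non-TG, 5038 and 404 in GS/DA, and 214 and 3549.6 in GS.

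In the normal striatum the microglia genes formed 3 tiers of footprinting level, compared per kb of CDS because the genes differ in length. In the non-TG libraries of the GS/DA table (mean of the pair), Ctss, a lysosomal cysteine protease, had 868 normalised reads per kb, C1qb 749, C1qa 710.3 and C1qc 695, against a median of 474 over all transcripts. Cx3cr1, the receptor for neuronal fractalkine, had 389 and Csf1r, the receptor for Csf1 and Il34, had 384. Trem2, a lipid-sensing receptor, was lowest at 234. Ctss and the C1q chains were not separable by their libraries, nor were Cx3cr1 and Csf1r, but the libraries of the 3 tiers did not overlap. In the WT mice of the KO table the order was C1qb 88.7, C1qc 78.6, Ctss 77.2, C1qa 75.1, Cx3cr1 53.0, P2ry12 50.8 and Csf1r 41.0 reads per kb (median of all transcripts 110.3). The C1q chains and Ctss thus again lay above the receptors by their means, although the libraries of WT footprinting overlapped, and P2ry12, the ADP receptor that guides microglial processes, lay next to Cx3cr1.

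Translation efficiency (TE), the log2 ratio of footprinting to RNA-Seq level, was higher for Cx3cr1 than for Ctss in the group means of the non-TG striatum. Cx3cr1 had a TE of 0.76, at percentile 83.4 of the GS/DA table, and 0.54, at percentile 83.3 of the GS table. Ctss had -0.84 (percentile 14.9) and -0.82 (percentile 21.6), and C1qa -0.44 (percentile 27.2) and -0.67 (percentile 26.7). The other members lay between percentiles 50.6 and 64.5 in both transgenic tables. This order was not seen in the WT mice of the KO table, where Ctss was the highest member at percentile 69.4, Cx3cr1 was at 34.5 and Csf1r was lowest at 24.5. The libraries behind these means differ strongly for Ctss: its RNA-Seq level in non-TG was 556 in the shallower and 2648 in the deeper library. With the shallower RNA-Seq library alone the TE of the GS/DA table was 0.68 for Ctss and 0.50 for Cx3cr1, and with the deeper one -1.57 and 1.06, so their order turns with the library.

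The C1q chains assemble into a single protein, and their genes lie side by side. On mouse build NCBIM37 they span 18.7 kb of chromosome 4, in the order C1qb, C1qc and C1qa, all on the minus strand (chr4:136436044-136454718). Their CDS lengths are close, at 735 bases for C1qa, 759 for C1qb and 738 for C1qc, and their GC contents are 58.8%, 58.5% and 61.9%, above the median of 52.9% over all transcripts of the GS/DA table. Predicted folding energy of the 5′ UTR was weaker than the median of -91.15 kcal/mol in that table for C1qa (-39), C1qb (-58.3), C1qc (-16.8), Cx3cr1 (-27.8), Ctss (-33.3), Trem2 (-55.2) and Csf1r (-85.45). P2ry12 was the exception with -121 kcal/mol, against a median of -90.4 in the KO table.

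Because footprints come from initiating and elongating ribosomes, the bases around the start codon are shown for 7 of 8 listed members (Csf1r is not shown), from GENCODE transcripts on build NCBIM37, 5′ to 3′, with the start codon in capitals.
Cx3cr1: gacctcaccATGtcc
P2ry12: accaggaccATGgat
Trem2: aaaggtgccATGgga
C1qa: agggacaccATGgag
C1qb: gctgagctgATGaag
C1qc: accctcaggATGgtc
Ctss: cacttcaggATGacc
Csf1r, P2ry12, Trem2, C1qa and C1qc, 5 of 8, carry a purine at the third base before the start codon and a G directly after it (ANNATGG or GNNATGG, read on the coding strand), a combination found in 41.3% of 19574 genes. Cx3cr1 and Ctss hold the purine but not the G (ANNATG or GNNATG in 84.0% of genes). C1qb, in contrast, has neither.

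In GS mice the microglia genes lay close to their controls in footprinting. The footprinting mean of Csf1r was 1046 (libraries 1242 and 849.9) against 939 in non-TG, that of Ctss 779 (1008 and 549.9) against 703, and that of Cx3cr1 365 (364.9 and 364.8) against 349. Among complement chains, C1qc had 430 (541 and 319.9) against 407, C1qb 476 (559 and 394) against 468, and C1qa 414 (489 and 339.7) against 418. Trem2 had 140.5 (151 and 129.5) against 139.9. The control mean lay between the GS libraries for C1qa, C1qb, C1qc, Csf1r, Ctss and Trem2. Cx3cr1 was above its control mean in both libraries, by 1.05-fold.

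Across members, the median footprinting difference in GS was 0.07 (log2), with 6 of 7 above control, against 0.0034 over all transcripts, of which 51.2% were above. Of markers of other cells in the same comparison, 5 of 6 for astrocytes (median 0.09) and 6 of 6 for oligodendrocytes (0.20) were above control. For striatal neurons it was 1 of 6 (-0.12) and for blood 0 of 3 (-0.15), and their part in the result was not tested. The median RNA-Seq difference of the members was 0.13 with 6 of 7 above, against -0.02 over all transcripts with 44.3% above. Their median TE difference was 0.01 against 0.02. The widest RNA-Seq folds were Trem2 at 1.25 (157 to 195), C1qa at 1.22 (666 to 814) and C1qb at 1.18 (503 to 594), and Cx3cr1 was the member below control, at 0.877 (240 to 211). The first 3 lie above the 90% quantile of all transcripts (0.17, log2). For Trem2 (196 and 195) and C1qa (825 and 803) both GS libraries lay above the control mean. The GS RNA-Seq libraries lay wide apart for C1qb, with 846 and 342, and for other members such as Ctss, with 431 and 2289. A difference of at least 1.3-fold was reached by 0 of 7 members in footprinting (1.31% of all transcripts), 0 of 7 in RNA-Seq (7.52%) and 0 of 7 in TE (8.91%). Limma was not run on these means, so unadjusted and adjusted calls do not exist for them. Without the shallower GS library the median footprinting difference was -0.25, the median RNA-Seq difference -0.47 and the median TE difference -0.43 or 0.53, by the assay left out. Without the deeper one they were 0.26, 0.32 and 0.25 or -0.32, so each direction rests on the pair.

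In GS/DA mice the footprinting means of 7 of 7 members were slightly above non-TG. Cx3cr1 had 405 and 422 normalised reads in the non-TG libraries and 515 and 454 in the GS/DA libraries (shallower, deeper). Its groups did not overlap, the single such case among 7 members, where 24.3% of all transcripts had groups that did not overlap. Csf1r had 1028 and 1248 in non-TG and 1173 and 1346 in GS/DA, and Trem2 155 and 194 against 129 and 239. In both receptors the groups overlapped.

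The complement chains and Ctss differed more between libraries than between genotypes in this table. C1qa had 423 and 621 in non-TG and 481 and 657 in GS/DA, C1qb 516 and 621 against 466 and 709.8, and C1qc 435 and 591 against 438 and 643. Ctss had 629 and 1158 in non-TG and 679 and 1265 in GS/DA. For each of these 4 genes the deeper library was the higher one in both groups, and the spread within a group exceeded the difference between group means.

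The median footprinting difference of the members in GS/DA was 0.12 (log2; -0.01 over all transcripts, of which 47.5% were above control). Of markers of other cells, 6 of 6 for astrocytes (median 0.12), 4 of 6 for oligodendrocytes (0.05), 0 of 6 for striatal neurons (-0.24) and 0 of 3 for blood (-0.32) were above control in the same comparison, and their part in the result was not tested. Limma gave Cx3cr1 a log2 difference of 0.22 ± 0.12 (SE; adjusted p = 1.00) and Csf1r 0.15 ± 0.15 (adjusted p = 1.00). No member was called: limma called 0 of 8412 transcripts at an adjusted p of 0.05, with 154 (1.83%) at an unadjusted p under 0.05, and its voom variant called 0 with 153. With matched libraries of both genotypes as a term in the fit, limma called 25 transcripts and 0 members. There Cx3cr1 had an adjusted p of 0.321, the lowest of any member under the settings run, with both matched pairs higher in GS/DA, by 1.27-fold and 1.08-fold. Among 7 members, 0 differed by at least 1.3-fold in footprinting (1.85% of all transcripts), 0 in RNA-Seq (6.33%) and 0 in TE (5.87%). In matched pairs 5 of 7 members were higher in GS/DA with the shallower libraries (median 0.11, 48.1% of all transcripts higher). With the deeper libraries it was 7 of 7 (median 0.12, 48.0% of all). The median footprinting difference over unmatched means was -0.08 without the shallower and 0.29 without the deeper non-TG library. It was 0.33 without the shallower and -0.23 without the deeper GS/DA library.

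RNA-Seq of the same mice showed a split between libraries that was far wider than the difference between genotypes for every listed member but C1qa. Csf1r had 1361 and 590.2 in non-TG and 719.9 and 1666 in GS/DA. C1qc had 594 and 235 against 215 and 708, and C1qb 655 and 286 against 273 and 765. The high library was the shallower one in non-TG and the deeper one in GS/DA. Ctss ran the other way, with 556 and 2648 in non-TG and 2684 and 543 in GS/DA, and C1qa varied least, with 685 and 734 against 722 and 759.

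This split went with base composition across the table. The log2 difference between the deeper and the shallower RNA-Seq library correlated with CDS GC content at r = -0.75 in non-TG, 0.78 in GS/DA and -0.76 in GS, over 8280, 8268 and 8309 transcripts that share libraries. Ctss, at 48.5% GC, stood on the low side, and C1qc at 61.9% and C1qb at 58.5% on the high side. C1qa, at 58.8%, did not show it, and Trem2, at 59.6%, showed less of it, with 197 and 139.7 in non-TG, 138 and 218 in GS/DA, and 196 and 195 in GS. The part of base composition in the RNA-Seq values of the members was not tested.

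**Figure D1:**
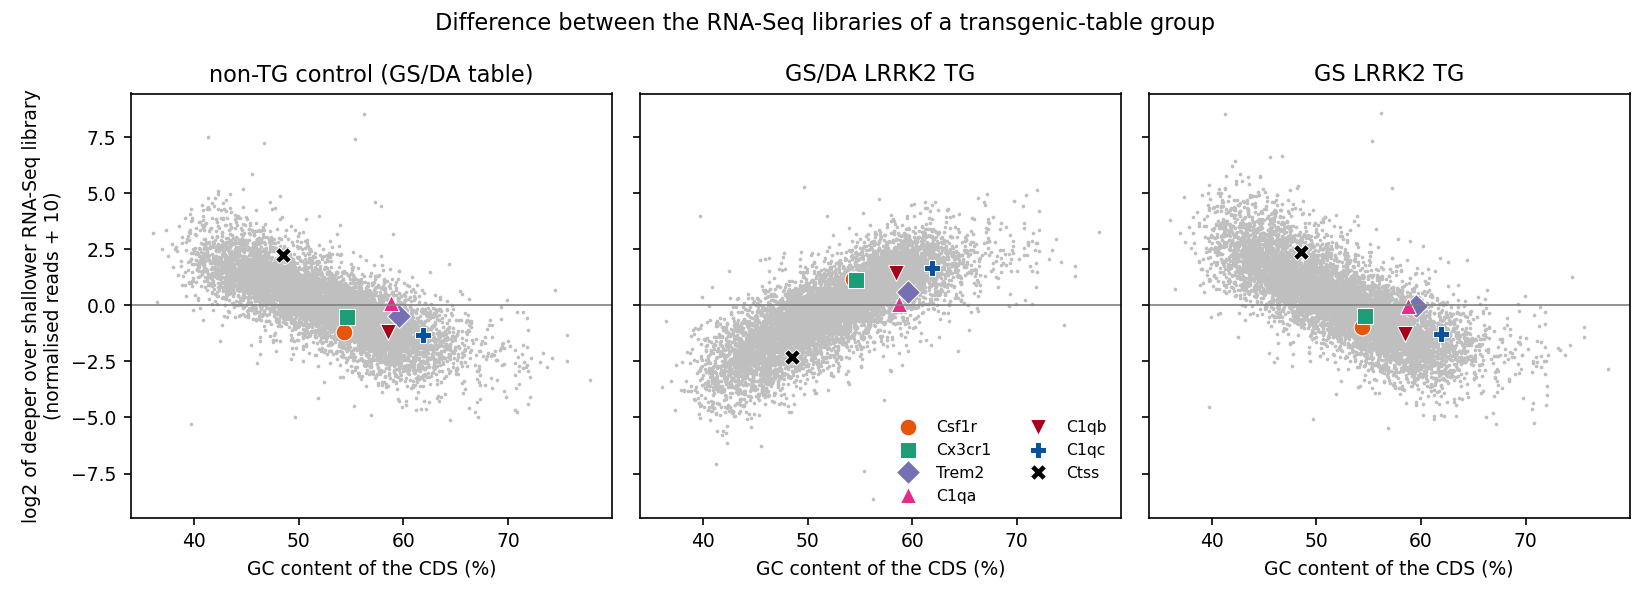
Log2 difference between the deeper and the shallower RNA-Seq library of a group (vertical axis) against GC content of the CDS in percent (horizontal axis), for the transgenic tables. Each grey point is 1 transcript and the larger symbols are microglia genes.

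When RNA-Seq libraries were matched by that shared difference, the members gave no single direction. With the shallower non-TG and the deeper GS/DA library, 6 of 7 members were higher in GS/DA (median log2 0.22; 49.1% of all transcripts higher), and with the other pair 2 of 7 (median -0.02; 56.4% of all). Csf1r was 1.22-fold higher in both pairs. Over unmatched means, 7 of 7 members were above non-TG, with a median of 0.08 against 0.06 over all transcripts and 64.7% of those above. Groups did not overlap for 0 of 7 members (3.38% of all transcripts), and limma called 0 transcripts, with 0 at an unadjusted p under 0.05 and 0 by voom. The median SE over all transcripts was 0.70 (log2) in this fit, so 0 calls there say little about the genes. With matched libraries as a term the median SE was 0.18. That limma fit called 0 transcripts, with 135 (1.59%) at an unadjusted p under 0.05. The median TE difference was -0.01 (all transcripts -0.05), and the limma interaction of genotype and assay likewise called 0, with 0 at an unadjusted p under 0.05. The median RNA-Seq difference was 0.35 and -0.19 without the shallower and the deeper non-TG library, and 0.53 and -0.44 without those of GS/DA. The median TE difference moved to between -0.38 (without the deeper GS/DA footprinting library) and 0.58 (without the deeper GS/DA RNA-Seq library).

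In KO mice the complement chains C1qb and C1qa had the highest RNA-Seq means relative to control of any listed member in the 3 tables. C1qb had 147 and 66.5 normalised reads in WT and 279 and 74.3 in KO (shallower, deeper), a 1.66-fold higher mean. C1qa had 149 and 59.0 in WT and 245 and 57.7 in KO, 1.46-fold higher. C1qc had 172 and 50.1 against 206 and 65.5, 1.23-fold higher. In all 3 chains the groups overlapped, since the deeper KO library lay below the shallower WT library, and most of the excess came from the shallower KO library.

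Of the remaining members, Ctss had an RNA-Seq fold of 1.298, between those of C1qa and C1qc, and the receptors had smaller ones, from 1.06 to 1.14. Ctss had 143 and 58.3 in WT and 201 and 59.8 in KO (means 101 and 130.5), and Csf1r had 376 and 164 against 469 and 147 (means 270 and 308). P2ry12 had 108 and 69.5 against 126 and 76.9, and Cx3cr1 149 and 62.8 against 152 and 72.8. For each, the shallower library of either genotype was above the deeper library of the other.

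Over the 7 listed members, 7 were above WT in RNA-Seq, with a median log2 difference of 0.29 against 0.01 over all transcripts, of which 51.3% were above. Of 10 other listed microglia and macrophage genes 6 were above WT (median 0.16), with a summed mean of 2184 in WT and 2148 in KO. Ligands and partners had 3 of 8 above (-0.11). Of markers of other cells, 4 of 6 for striatal neurons (0.12) and 2 of 6 for oligodendrocytes (-0.07) were above. For astrocytes it was 1 of 6 (-0.18) and for blood 0 of 3 (-0.29), and their part was not tested. At least 1.3-fold was reached by C1qa and C1qb, 2 of 7, against 8.92% of all transcripts, and groups did not overlap for 0 of 7 (14% of all). Limma gave C1qb 0.51 ± 0.67 and C1qa 0.33 ± 0.73 (SE), with an adjusted p of 1.00 for both. It called 0 of 9555 transcripts, with 7 at an unadjusted p under 0.05 and 0 called by voom. With matched libraries as a term, 11 transcripts and 0 members were called, and C1qb had an adjusted p of 0.997.

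The libraries carry this difference unequally. In the shallower matched pair 7 of 7 members were higher in KO, C1qb by 1.90-fold, C1qa by 1.65-fold and Ctss by 1.41-fold (50.2% of all transcripts were higher). In the deeper pair 5 of 7 were higher, with C1qb at 1.12-fold, C1qa at 0.977-fold, Csf1r at 0.896-fold and Ctss at 1.03-fold. C1qc and Cx3cr1 went the other way, at 1.202-fold and 1.02-fold in the shallower pair and 1.31-fold and 1.16-fold in the deeper pair. The median of the members was 0.32 and 0.15 in these pairs. The median over unpaired libraries was 1.16 without the shallower and -0.13 without the deeper WT library, and -0.75 and 0.90 without those of KO. Leaving out 1 library unbalances the split between libraries that both genotypes share, so these values mix that split with genotype. Within both matched pairs the median was above 0.

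Footprinting in the KO table gave a smaller median difference than RNA-Seq, but Cx3cr1 and Csf1r had a higher fold in footprinting. Cx3cr1 had 19.98 and 92.7 normalised reads in WT and 26.6 and 122 in KO, a 1.32-fold higher mean and 1.33-fold and 1.32-fold in the matched pairs. It rests on 15 raw reads in the shallower WT library and 19 in the shallower KO library, and on 119 and 178 in the deeper ones. Csf1r had 34.6 and 209 in WT and 32.2 and 265 in KO, 1.22-fold higher, and P2ry12 28.0 and 77.9 against 21.0 and 84.9, with means of 52.9 in both. For the receptors the libraries within each genotype lay several-fold apart, and the groups overlapped.

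The other members had footprinting means near WT. C1qa had 14.7 and 95.8 in WT and 16.8 and 109.6 in KO (1.14-fold), C1qb 9.33 and 125 against 12.6 and 123 (1.00-fold), and C1qc 9.33 and 107 against 11.2 and 108 (1.03-fold). Ctss had 28.0 and 131 in WT and 25.2 and 144 in KO (1.07-fold). The C1q footprinting means rest mainly on the deeper libraries and the RNA-Seq means mainly on the shallower ones. Depth was ranked within each assay, so these may be libraries of the same pools. From the group means, the TE difference was -0.73 for C1qb, -0.35 for C1qa and -0.25 for C1qc.

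Across the members the median footprinting difference was 0.10, with 7 of 7 above WT, against 0.02 over all transcripts with 54.4% above; P2ry12 counts among the 7 with means that are equal to 3 digits. In the shallower matched pair 4 of 7 were higher in KO (46.0% of all transcripts), C1qb at 1.35-fold, Cx3cr1 at 1.33-fold, C1qc at 1.1999-fold and C1qa at 1.15-fold, with P2ry12 at 0.7499-fold, Ctss at 0.8999-fold and Csf1r at 0.929-fold, and in the deeper pair 6 of 7 (58.9%), with C1qb at 0.978-fold. At least 1.3-fold was reached by 1 of 7 (Cx3cr1; 4.75% of all transcripts; 0 of 7 with a pseudocount of 10), and groups did not overlap for 0 of 7 (12.6%). The median TE difference was -0.25 against 0.02, with 1 of 7 members past 1.3-fold (C1qb; 15.1%). Limma gave Cx3cr1 0.32 ± 0.90 (SE; adjusted p = 1.00) and called 0 of 9540 transcripts in footprinting, with 16 at an unadjusted p under 0.05 and 0 by voom. With matched libraries as a term, 15 transcripts and 0 members were called. The limma interaction for TE called 0, with 4 at an unadjusted p under 0.05. The footprinting median was -0.60 without the shallower and 2.10 without the deeper WT library, and 0.90 and -1.72 without those of KO. The TE median moved to between -2.11, without the deeper KO footprinting library, and 1.80, without the deeper WT one.

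**Figure D2:**
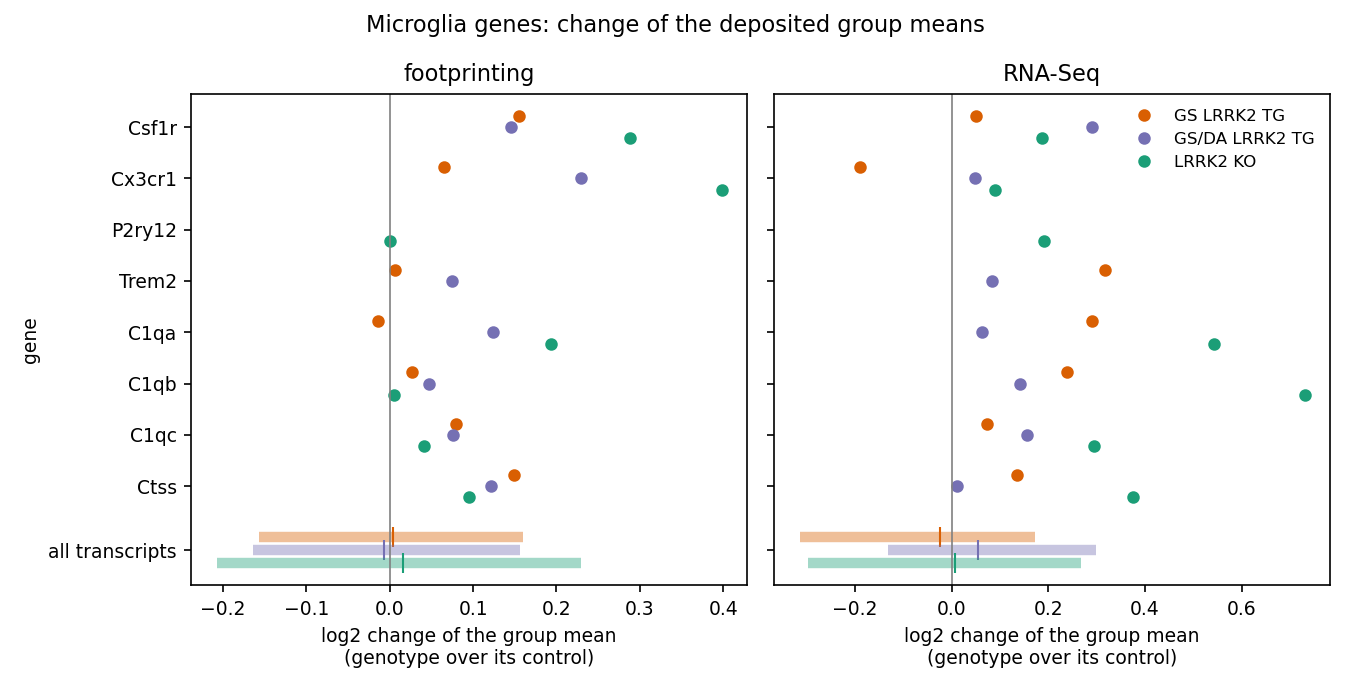
Log2 ratio of genotype over control for each listed microglia gene (horizontal axis) in footprinting and RNA-Seq, from the group means of each table. Bars at the bottom run from the 10% to the 90% quantile of all transcripts, with the median as a tick.

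The members differed more between libraries than between genotypes in this table. Footprinting levels of C1qb were 13.4-fold higher in the deeper than in the shallower WT library after normalisation (95% counting interval 6.38 to 34.0; 7 and 161 raw reads) and 9.74-fold higher in KO (9 and 179 raw reads). Csf1r was 6.02-fold and 8.24-fold higher, and Cx3cr1 4.64-fold and 4.59-fold. P2ry12 stood lowest, at 2.78-fold in WT and 4.05-fold in KO. At least 4-fold was reached by 6 of 7 members in WT, where 1.35% of all transcripts were that much higher in the deeper library, and by 7 of 7 in KO (2.16%).

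In RNA-Seq of the KO table the members were higher in the shallower library. Depth was ranked within each assay, so it may come from the same pool as the deeper footprinting library. Of the pools with both assays, the one with more mapped footprinting reads had fewer mapped RNA-Seq reads, in WT and in KO, by the authors' counts. C1qc was 3.43-fold and 3.15-fold higher in the shallower library of WT and KO, C1qa 2.52-fold and 4.24-fold, and Csf1r 2.30-fold and 3.20-fold. At least 2-fold was reached by 6 of 7 members in WT (6.49% of all transcripts) and 6 of 7 in KO (5.32%). P2ry12 was the member below it, at 1.55-fold and 1.63-fold. The microglia genes thus moved together between libraries of the same genotype, in both assays and both genotypes. Across all transcripts the difference between the libraries correlated with CDS GC content at r = 0.46 (WT) and 0.17 (KO) in footprinting and at r = -0.07 and -0.27 in RNA-Seq. In pooled bulk tissue fewer microglia and less of these RNAs per microglial cell cannot be told apart, and the part of depth or base composition in this split was not tested.

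**Figure D3:**
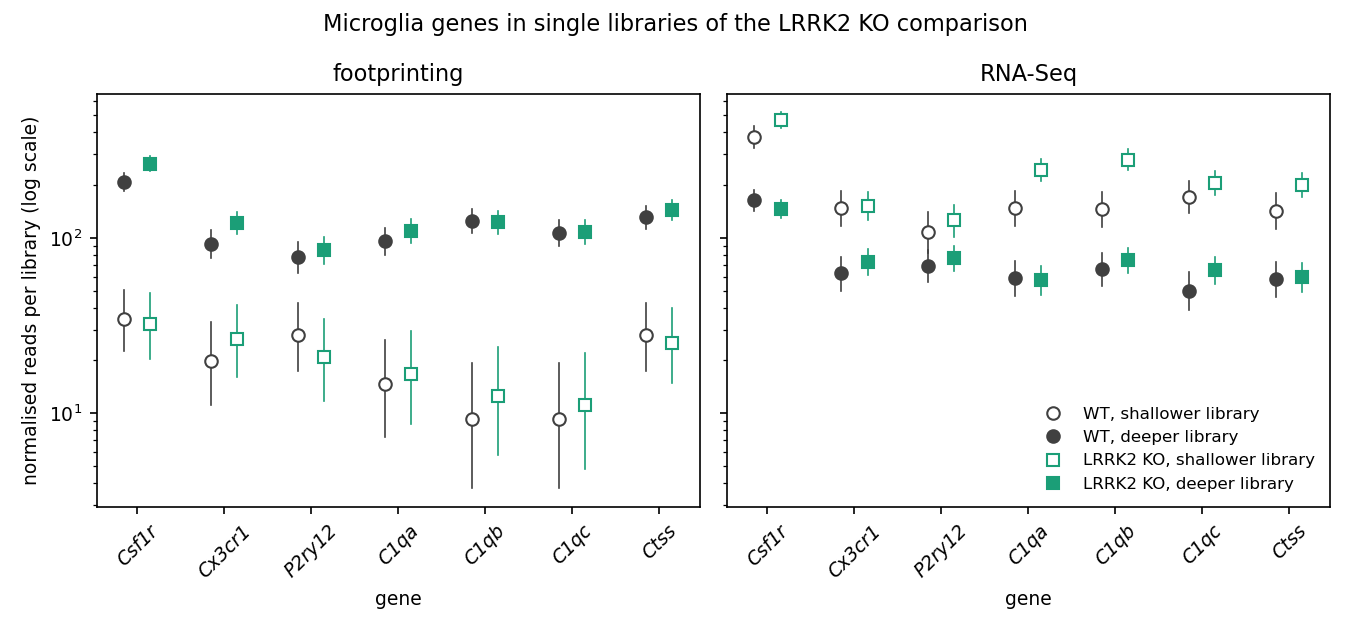
Normalised reads (vertical axis, log scale) of each listed microglia gene in the single libraries of WT and KO striatum, for footprinting and RNA-Seq. Bars give the 95% interval from read counting alone.

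Lists of related genes were read beside the members in the KO table. Of 30 other microglia and macrophage genes, 10 were listed, and their summed footprinting level was 602 and 1706 in WT and 564 and 1783 in KO (shallower, deeper). The summed level of the members was 144 and 838 in WT and 145 and 957 in KO. Tmem119, a transmembrane protein that marks microglia, had 3.997 and 54.5 in WT and 4.196 and 56.8 in KO. Lgmn, a lysosomal protease and the most abundant gene of the list, had 228 and 589.5 in WT and 178 and 529.95 in KO. In each genotype 9 of 10 genes were higher in the deeper library, the exceptions being Itgam in WT and Sall1 in KO. Of all transcripts, 48.9% in WT and 48.8% in KO were higher there. Most of the list therefore shared the library split of the members.

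Ligands and partners of the members shared the split too. Of 18, 8 were listed, and 8 of 8 were higher in the deeper footprinting library of each genotype (48.9% of all transcripts in WT, 48.8% in KO). Their sums were 5315 and 17848 in WT and 4391 and 19143 in KO. Apoe, a ligand of Trem2 made mainly by astrocytes, had 1005 and 5054 in WT and 723 and 4904 in KO. Cst3, an inhibitor of Ctss, had 1099 and 3954 in WT and 782 and 4819 in KO.

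Markers of other cells gave mixed values in the same libraries. Astrocyte markers (6 of 6 listed, Slc1a2 the most abundant) summed to 2651 and 5868 in WT and 2133 and 6662 in KO. Striatal neuron markers (6 of 6) summed to 13010 and 22880 and to 12838 and 24060. Oligodendrocyte markers (6 of 6) summed to 21799 and 15505 in WT and 19326 and 17842 in KO, and blood genes (3 of 6) to 1364 and 5375 and to 1537 and 2716. Ttr, the 1 of 3 choroid plexus genes listed, had 87.9 and 81.0 in WT and 18.2 and 165 in KO. Astrocyte, neuron and blood sums, but not the oligodendrocyte sum, were thus higher in the deeper footprinting library of each genotype. RNA-Seq sums moved as well. The members summed to 1243 and 529.9 in WT and 1678 and 554 in KO (shallower, deeper), other microglia genes to 2595 and 1772 and to 2627 and 1669, and ligands and partners to 22956 and 9357 and to 21749.5 and 7929. Astrocyte markers summed to 6809.9 and 4415 in WT and 4367 and 4208 in KO, neuron markers to 34431 and 21574 and to 37707 and 22283, and blood genes to 9093 and 6039 and to 6883 and 6047. Oligodendrocyte markers ran opposite, with 20329 and 38224 in WT and 19104 and 36545 in KO. Ttr had 143 and 282 in WT and 173 and 34.8 in KO. The microglia, partner, neuron and blood lists thus had the higher RNA-Seq sum in the shallower library of both genotypes, as the members did. The astrocyte sum did so in WT and differed little in KO, where 3 of 6 markers were higher in the deeper library. No gene of the perivascular macrophage (0 of 7) or endothelial (0 of 6) lists was listed in the 3 tables, and the part of other cells in the results of the members was not tested.

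The same lists were compared between genotypes by their group means. Among other microglia genes 11 of 12 listed were above control in GS footprinting, with a median log2 difference of 0.16 (0.0034 over all transcripts, 51.2% above). The sum of the list was 7284 and 5587 in the GS libraries (shallower, deeper) against a control mean of 5812, so its excess rests on the shallower one, and 6 of 6 oligodendrocyte markers were also above control (median 0.196). In GS/DA 7 of 12 were above (median 0.06; all transcripts -0.01, 47.5% above) and in KO 8 of 10 (median 0.06; all transcripts 0.02, 54.4% above). At least 1.3-fold was reached by 1 of 12, 1 of 12 and 2 of 10, against 1.31%, 1.85% and 4.75% of all transcripts. Fcrls, an Fc receptor-like gene of microglia, was highest in GS (124 to 167, 1.34-fold) and lowest in GS/DA (166 to 130.4, 0.784-fold). Mertk, a receptor for uptake of dying cells, was highest in GS/DA (257 to 350, 1.36-fold), and Sall1, a transcription factor of microglia, in KO (48.0 to 70.4, 1.47-fold). Unc93b1 in GS (0.939-fold) and Lgmn in KO (0.866-fold) were lowest.

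Among ligands and partners the median footprinting difference was 0.06, 0.11 and 0.03 in GS, GS/DA and KO. The highest were the complement component C4b in GS (1.21-fold), the phosphatase Inpp5d in GS/DA (1.26-fold) and Cst3 in KO (1.11-fold). The lowest were Il34 (0.846-fold), Cx3cl1, the fractalkine that binds Cx3cr1 (0.932-fold), and the TGF-β receptor Tgfbr1 (0.779-fold). In footprinting limma could test 12 of 12 listed microglia genes and 3 of 7 partners in GS/DA, Cx3cl1 not among them, and 10 of 10 and 8 of 8 in KO. It called 0 of them, and Mertk and Inpp5d, both in GS/DA, were those at an unadjusted p under 0.05. The p-values above measure spread between a pair of pools per group, and nothing in the tables speaks to protein.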

How the data were processed

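Ribosome footprinting and RNA-Seq libraries of mouse striatum were grouped by genotype as labelled; ventral midbrain libraries (1 WT, 1 KO) were not used here. The authors trimmed and aligned reads (CASAVA 1.8, Bowtie2 2.2.2, TopHat2 2.0.11), counted them on the CDS, dropped transcripts under 128 reads and normalised with DESeq 1.20. The deposited values are a signal: the authors' normalised group mean for each assay. The authors' TE, TE difference and z columns were not used here. The 5′ UTR folding energy (kcal/mol) comes from the UCSC mm9 field.

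Each mean was written as a sum of 2 whole read counts divided by library size factors. The factors were found from the steps between means, and counts were recovered for 98.3% to 99.9% of transcripts in 10 of 12 columns. The planned limma fits of the GS table could not be run because its control libraries were not recovered. The labels give 3 samples for some groups, while 2 libraries fit each recovered mean, and libraries were not assigned to replicate numbers.

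Log2(normalised reads + 10) of all recovered transcripts was fitted with limma 3.58.1 in R 4.3.3, each assay alone, with Benjamini-Hochberg adjustment and a threshold of 0.05. TE was fitted as an interaction, chosen after seeing the data. Libraries were matched across genotypes by the difference that both genotypes share (r = 0.80 and -0.97 for GS/DA footprinting and RNA-Seq, 0.85 and 0.78 for KO). A 1.3-fold difference of group means describes size and is no test. Counting intervals (95%) are exact. Python 3.11.15, numpy 2.4.6, pandas 2.3.3, scipy 1.17.1 and matplotlib 3.10.9 were used. The methods were tested on simulated libraries that varied independently. At a simulated 2-fold change, limma called 70 of 98 transcripts in GS/DA footprinting and 0 of 93 in GS/DA RNA-Seq. In KO it called 5 of 99 in footprinting and 6 of 98 in RNA-Seq. In those RNA-Seq and KO fits, 0 calls thus say little about differences of 2-fold or less.

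All 10 members were named, and of every other list the genes with the highest and the lowest footprinting difference and any called by limma; Tmem119, Apoe, Itgam, Slc1a2 (as the most abundant astrocyte marker) and the Cst3 library values were added after their values were seen. The members and lists were chosen with earlier results of these data known. Alternatives were other pseudocounts, fold thresholds, filters, voom weights, median-centred libraries, matched libraries as a term and leaving out each library.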

Additional observations from a re-analysis of the deposited data

How the results depend on the processing

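Over all results of comparisons and alternatives, 28 values moved by more than the spread between libraries (counts: by over 1.5 times). Another 131 did not. Nor did 126 values of single members, which were recomputed only with a pseudocount of 10 or minus the median change of all transcripts. No library was left out for single members, so that count says little about them. The spread between libraries is wide, so a value within it may still change sign. At 1.2-fold in place of 1.3-fold, the members counted were 2 (GS RNA-Seq), 2 (GS TE), 1 (GS/DA RNA-Seq), 2 (KO footprinting), 4 (KO RNA-Seq) and 4 (KO TE). At 1.5-fold they were 0 in KO footprinting and 1 in KO RNA-Seq, and a pseudocount of 10 left 0 in KO footprinting. Leaving out 1 library gave medians from -0.25 to 0.26 (GS footprinting), -0.47 to 0.32 (GS RNA-Seq), -0.43 to 0.53 (GS TE), -0.23 to 0.33 (GS/DA footprinting), -0.44 to 0.53 (GS/DA RNA-Seq), -0.38 to 0.58 (GS/DA TE), -1.72 to 2.10 (KO footprinting), -0.75 to 1.16 (KO RNA-Seq) and -2.11 to 1.80 (KO TE). Ranked among transcripts whose means reach 2 times the read minimum or more, the median TE percentile of the members in WT was 19.4 in place of 34.5. Limma calls in GS/DA footprinting were 25 with matched libraries as a term, 5 with the opposite matching, and 2 to 25 when leaving out 1 library, where the lone library is assumed to vary like the other group. With matched libraries limma called 15 in KO footprinting and 11 in KO RNA-Seq, and with the opposite matching 0 in both. Members called were 0 under every setting run. The fold thresholds between libraries were chosen after seeing the data: at 6-fold in place of 4-fold, 4 of 7 members were that much higher in the deeper KO footprinting library, and at 3-fold in place of 2-fold, 1 of 7 in the shallower WT RNA-Seq library. The cause was not tested.

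The filter on group means of at least 256 leaves no member in the KO table, so it gives no value there. No paired analysis was possible because the labels do not say which libraries of the genotypes were prepared together; libraries were matched from the data instead. Read counts of the members were low in the shallower footprinting libraries of the KO table, where C1qb rests on 7 and 9 reads and C1qc on 7 and 8.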

Other observations

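Ttr, a transthyretin gene highly expressed by the choroid plexus next to the striatum, gave the widest spread of the marker lists. Its footprinting mean was 3944 in non-TG and 723 in GS, and 9125 in non-TG and 3149 in GS/DA. In the GS/DA table the non-TG libraries held 17056 and 1193 normalised reads, so the control mean rests on 1 library.

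The highest and the lowest footprinting folds of the marker lists were these. In GS, astrocyte markers ran from Aldh1l1 (0.985) to Gfap (1.12), oligodendrocyte markers from Cnp (1.04) to Mobp (1.23), striatal neuron markers from Drd1a (0.837) to Tac1 (1.11), and blood genes from Beta-s (0.897) to Hba-a2 (0.993). In GS/DA they ran from Slc1a3 (1.04) to Gfap (1.19), Cnp (0.956) to Mobp (1.08), Penk (0.694) to Drd2 (0.908), and Hbb-b1 (0.793) to Hba-a2 (0.805). In KO they ran from Gfap (0.761) to Aqp4 (1.12), Cnp (0.907) to Mbp (1.06), Penk (0.957) to Drd2 (1.25), and Hba-a2 (0.612) to Hbb-b1 (0.655).

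The lower blood means in KO rest on the deeper WT library: blood genes summed to 1364 and 5375 in WT and 1537 and 2716 in KO (shallower, deeper), so the shallower pair ran the other way. Limma called 0 of the marker genes tested in GS/DA and KO footprinting, with Hba-a2 in GS/DA at an unadjusted p under 0.05. Penk in GS/DA was not recovered in both groups and was not tested.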
